A study of Mus musculus with 30 samples.

Results

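The AP-1 family of transcription factors was followed here through 8 genes: Fos, Fosb, Fosl1 and Fosl2 of the Fos group, Jun, Junb and Jund of the Jun group, and the related stress-response factor Atf3. They were chosen by name, as the rows of these symbols among 35973 genes of the blebbistatin RNA table and 35972 of the Y27632 table, together with the 13 of 16367 listed chromatin sites that the authors annotated to one of them. All 8 genes were found, and all 8 had a mean normalised count of at least 10 in both tables. In RefSeq (GRCm38.p6) the Fos genes lie at chr12:85473890-85477274 (Fos), chr7:19302696-19310118 (Fosb), chr19:5447698-5455938 (Fosl1) and chr5:32136472-32157840 (Fosl2). The Jun genes lie at chr4:95049036-95052222 (Jun), chr8:84976909-84978748 (Junb) and chr8:70697739-70700616 (Jund), and Atf3 lies at chr1:191170296-191183333. The cells were primary fibroblasts from mouse tail tendon, labelled wildtype throughout, treated in medium with 0.1% serum. RNA was sequenced after 10 µM blebbistatin, 30 µM Y27632 or DMSO, the solvent, in 3 libraries per group and 9 in all. Y27632 is a kinase inhibitor, and blebbistatin blocks the ATPase of myosin II. Chromatin accessibility (ATAC) was measured under the same treatments in 9 further libraries. Another 12 libraries, 3 per group, held cells with neither drug, with blebbistatin alone, with doxycycline at 10 ng/mL alone, and with both. Per the labels these cells are wildtype too. What doxycycline induced in them, the assay of these 12 in particular and the treatment times are not given in the sources used here, and there is no RNA of this experiment in the files. The series as a whole concerns the co-regulators Yap and Taz and matrix homeostasis.

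AP-1 factors are leucine-zipper proteins that bind DNA as pairs. Jun proteins pair with each other or with a Fos protein, whereas Fos proteins need a Jun partner. The pair recognises the AP-1 element TGANTCA, and Atf3 also pairs with Jun proteins on the cyclic AMP response element TGACGTCA. Fos, Fosb, Jun, Junb and Atf3 are immediate early genes, whose RNA rises quickly and briefly after serum, growth factors or stress without new protein being made. Fosl1 and Fosl2 are induced later and stay longer, and Jund is present in most resting cells. In fibroblasts AP-1 is known for driving matrix metalloproteinases and for sharing enhancers with Yap, Taz and their partner TEAD.

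The RNA libraries held 23375386 to 37061737 reads in genes. The labels do not say whether replicates came from separate cultures or animals, so p-values measure only the spread between these libraries, which may be technical. All 11 tendon fibroblast markers were present, with summed normalised counts of 795118 to 965538 per library. In DMSO of the blebbistatin table, the collagen genes Col1a1, Col1a2 and Col3a1 had means of 284615, 235763 and 230534, against 63.9 for Scx. Of the 11 markers, 4 were called higher and 4 lower with blebbistatin, and 6 higher and 1 lower with Y27632. The 20 markers of other cell types summed to 1254 to 1412 in DMSO and 1710 to 1924 with blebbistatin in one table, and to 1302 to 1468 in DMSO and 1789 to 2009 with Y27632 in the other. Of these 20, the muscle gene Myod1 was at 0 in every group. Of 9 tested, 4 were called higher under each inhibitor, the leukocyte genes Cd68, Adgre1 and Ptprc and the neural crest gene Sox10, and the pericyte gene Rgs5 was called lower with blebbistatin. Over all genes tested, 26.1% were called higher and 26.9% lower with blebbistatin, and 18.1% higher and 17.8% lower with Y27632. Sox10 was low, with means of 21.8 normalised counts in DMSO and 43.4 with blebbistatin. Cd68 rose from a mean of 553 to 827 normalised counts with blebbistatin (limma, log2 change 0.58, adjusted p 7.85e-06) and from 574 to 841 with Y27632 (0.55, adjusted p 9.39e-05). Their part in the changes of AP-1 genes described next was not tested. In bulk RNA, fewer cells of a type and less RNA per cell cannot be told apart.

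The promoters of Fos, Junb and Atf3, each with a site in the doxycycline list, are shown, and that of Jun because Jun RNA rose with both inhibitors while no list has a site there. The Fosb promoter also has a site in the doxycycline list, which covers only 16 of the 250 bases before its start, and is not printed. Each line is the 250 bases before the gene's start in RefSeq (build GRCm38.p6), 5′ to 3′ on the strand of the gene. Capitals mark matches to the response elements that were searched, which are the core of the cyclic AMP response element in Fos and Atf3 (on the other strand in Atf3) and a Jun-type AP-1 element, TGACATCA, in Jun.
Fos: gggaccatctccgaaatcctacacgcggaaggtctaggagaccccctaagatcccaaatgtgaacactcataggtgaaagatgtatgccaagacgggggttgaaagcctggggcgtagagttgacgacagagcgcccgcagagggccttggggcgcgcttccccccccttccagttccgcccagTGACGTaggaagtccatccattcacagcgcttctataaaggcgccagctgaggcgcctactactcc
Junb: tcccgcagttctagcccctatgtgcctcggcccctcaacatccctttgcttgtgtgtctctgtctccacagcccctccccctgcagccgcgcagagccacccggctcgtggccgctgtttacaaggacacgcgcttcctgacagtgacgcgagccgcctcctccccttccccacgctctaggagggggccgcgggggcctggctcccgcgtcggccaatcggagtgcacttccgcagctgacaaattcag
Atf3: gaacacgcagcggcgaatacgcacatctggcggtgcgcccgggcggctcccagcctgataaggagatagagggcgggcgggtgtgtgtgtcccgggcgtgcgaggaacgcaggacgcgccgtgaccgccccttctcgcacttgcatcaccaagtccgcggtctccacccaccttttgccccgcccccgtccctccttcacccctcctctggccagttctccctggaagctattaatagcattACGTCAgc
Jun: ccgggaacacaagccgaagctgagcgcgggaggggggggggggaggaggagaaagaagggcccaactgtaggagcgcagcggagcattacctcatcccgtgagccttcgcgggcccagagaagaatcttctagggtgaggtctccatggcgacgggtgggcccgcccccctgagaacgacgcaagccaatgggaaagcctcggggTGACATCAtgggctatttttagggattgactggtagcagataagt
These lines are chr12:85473640-85473889 on the plus strand for Fos and, on the minus strand, chr8:84978749-84978998 for Junb, chr1:191183334-191183583 for Atf3 and chr4:95052223-95052472 for Jun. The search covered both strands of the 300-base windows of 7 of the 8 members (250 bases before to 50 after the start). The window of Fosl1 was not used here. The core TGACGT, which is also contained in the full element TGACGTCA, began 66 bases before the start of Fos and 8 bases before that of Atf3, and 7.51% of 32851 promoters of this length hold it. TGACATCA began 45 bases before the start of Jun and occurs in 3.62% of these promoters. The elements TGANTCA (7.81% of promoters), TGACGTCA (1.79%), the TEAD element GGAATG (14.7%) and the CArG box bound by serum response factor (1.63%) had no match in the 7 windows. The TATA box TATAAA (13.6%) matched in Fos and Junb. In Fos it began 33 bases before the start and is left in lower case in the printed line. In Junb it began at the annotated start itself, beyond the printed line. A match describes letters, not a bound site. Sequence more than 250 bases before the start was not searched, so an element without a match here may still lie further upstream.

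Jun and Junb, the Jun proteins that are induced by growth factors and stress, rose with both inhibitors, and more with Y27632. In the blebbistatin table Jun had 1794, 1668 and 1863 normalised counts in the 3 DMSO libraries and 2843, 3173 and 2601 in the 3 with blebbistatin. In the Y27632 table, which the authors scaled separately, the same DMSO libraries had 1865, 1732 and 1936, and those with Y27632 had 4204, 3845 and 4613. Every treated library lay above every DMSO library, with no overlap under either inhibitor. The log2 change of Jun was 0.69 with a standard error (SE) of 0.064 for blebbistatin (limma adjusted p 1.90e-06) and 1.19 with an SE of 0.059 for Y27632 (limma adjusted p 1.02e-08). Junb had 756, 764 and 796 normalised counts in DMSO and 933, 1290 and 1083 with blebbistatin. Against 786, 794 and 827 in DMSO in the other table, it had 2393, 2215 and 3025 with Y27632. The groups did not overlap, but the treated libraries were less alike than those of DMSO, with a coefficient of variation of 16.3% with blebbistatin and 16.7% with Y27632 against 2.76% in DMSO. The log2 change of Junb was 0.50 (SE 0.090, limma adjusted p 0.000516) with blebbistatin and 1.65 (SE 0.085, limma adjusted p 1.40e-08) with Y27632.

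**Figure D1:**
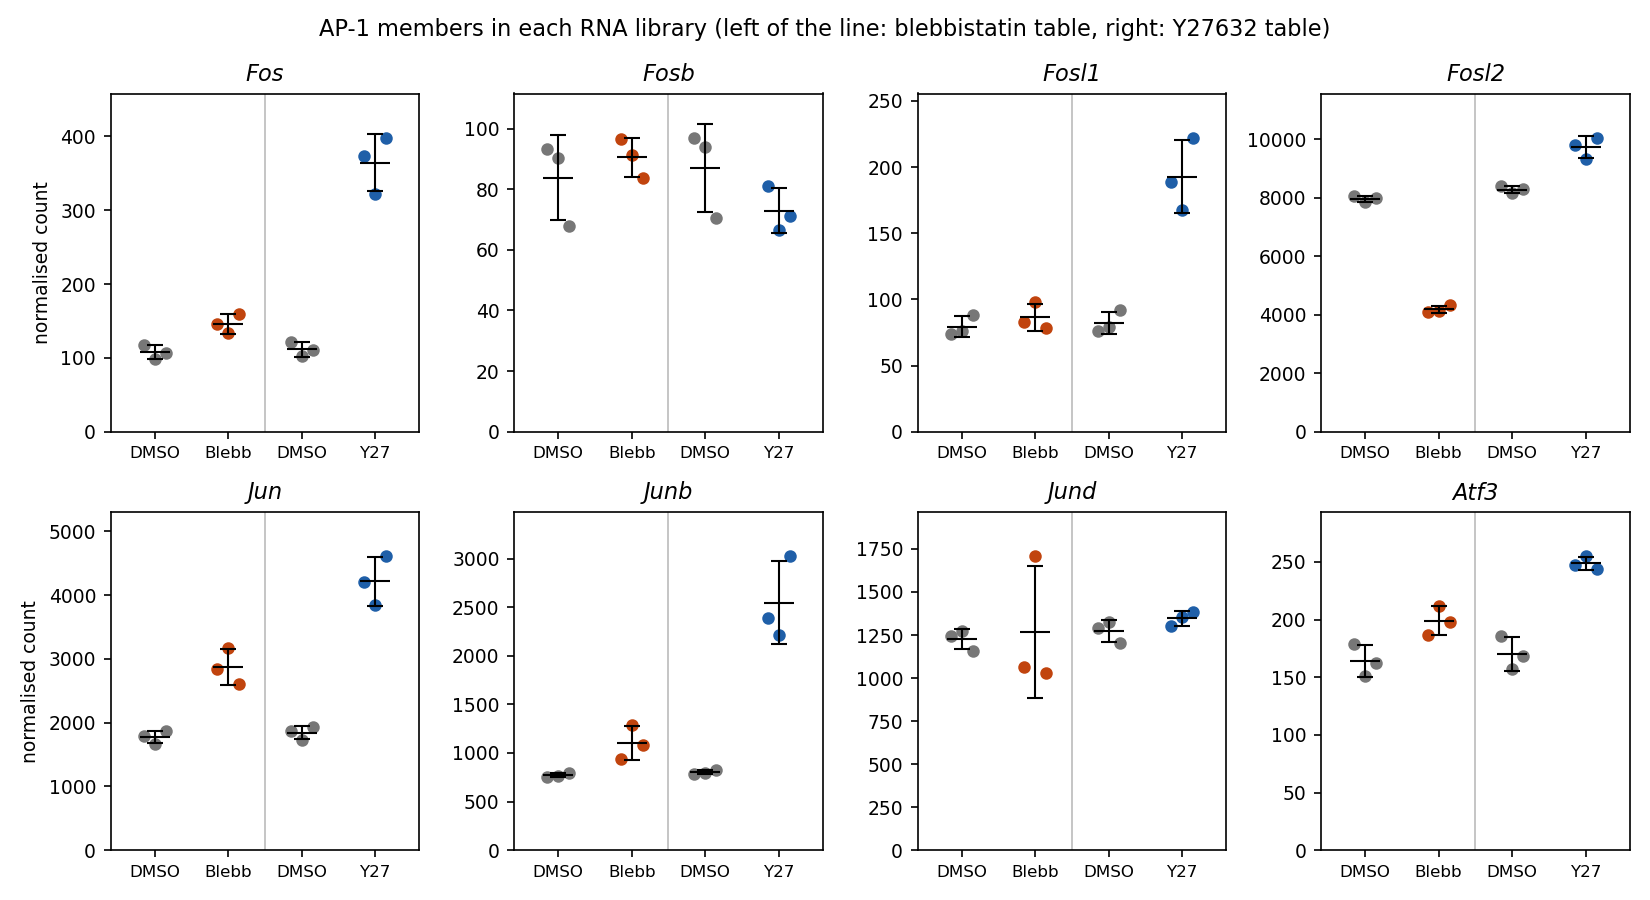
Normalised counts of the 8 AP-1 genes in each RNA library, with 1 point per library, the mean as a horizontal mark and the SD as a bar (n = 3), on axes that start at 0. The grey line separates the 2 tables, which hold the same DMSO libraries under separate scaling. Fosl2 lies between 4102 and 4325 with blebbistatin and between 7848 and 8065 in DMSO, and 1 blebbistatin library of Jund, at 1708, stands above the other 2.

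Jund, the member that most resting cells contain, was not called under either inhibitor. It had 1244, 1275 and 1159 normalised counts in DMSO and 1065, 1708 and 1028 with blebbistatin, so that replicate 2 was above all DMSO libraries and the other 2 replicates were below them. The log2 change was 0.01 (95% interval -0.31 to 0.32, limma adjusted p 0.969). Without blebbistatin replicate 2 it was -0.23 and called lower (limma adjusted p 0.00298), so the call turns on this library. The value, close to 0, was also negative without DMSO replicate 3 (-0.032, not called). The same library had the highest value of the blebbistatin group for Jun, Junb, Fosl1 and Atf3. Without it the log2 change was 0.62 for Jun and 0.38 for Junb, both still called. With Y27632, Jund had 1301, 1354 and 1385 normalised counts against 1293, 1324 and 1205 in DMSO, overlapping groups with a log2 change of 0.08 (95% interval -0.02 to 0.18, limma adjusted p 0.198).

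Fos, the founding member of its group and a short-lived immediate early product, rose slightly with blebbistatin and about 3-fold with Y27632. Its normalised counts were 117, 98.2 and 107 in DMSO and 145, 133 and 160 with blebbistatin. In the other table they were 122, 102 and 111 in DMSO and 373, 322 and 398 with Y27632. Neither treated group overlapped with DMSO. The log2 changes were 0.44 (SE 0.119, limma adjusted p 0.00786) and 1.70 (SE 0.105, limma adjusted p 7.74e-08), the second a 3.24-fold rise on the scale of log2(normalised count + 1). Fosb, which is related to Fos and induced with it in many cells, was not called. It had 93.3, 90.5 and 67.8 normalised counts in DMSO and 96.6, 91.3 and 83.6 with blebbistatin, a log2 change of 0.12 (95% interval -0.21 to 0.45, limma adjusted p 0.535). With Y27632 it had 81.2, 66.4 and 71.3 against 97.0, 93.9 and 70.4, a log2 change of -0.24 (95% interval -0.58 to 0.10, limma adjusted p 0.251). The groups overlapped in both tables. DMSO replicate 3 was the lowest of its group, and without it the change with blebbistatin was -0.02.

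Fosl1 and Fosl2 encode Fra-1 and Fra-2, the Fos proteins without the strong activation domain of Fos. Fosl1 had 73.5, 76.1 and 88.5 normalised counts in DMSO and 83.1, 97.8 and 78.1 with blebbistatin, overlapping groups with a log2 change of 0.12 (95% interval -0.19 to 0.43, limma adjusted p 0.518). With Y27632 it had 189, 167 and 222 against 76.4, 79.0 and 91.9 in DMSO, with no overlap. This rise was 1.21 on the log2 scale (SE 0.130, limma adjusted p 1.26e-05). Fosl1 overlaps the gene Ccdc85b in the RefSeq annotation, and whether counting used strand is not given in the sources used here, so reads of the pair may have been mixed. The other 7 members overlap no RefSeq gene.

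Fosl2 moved in opposite directions under the inhibitors. It fell to 52.6% of its DMSO mean with blebbistatin, from 8065, 7848 and 7974 to 4102, 4141 and 4325 normalised counts. With Y27632 it was at 9805, 9332 and 10053, against 8385, 8147 and 8286 in DMSO. The replicates were close, with coefficients of variation of 1.37% to 3.76%, and neither comparison had overlapping groups. The log2 change was -0.93 (SE 0.032, limma adjusted p 2.83e-10) with blebbistatin and 0.23 (SE 0.033, limma adjusted p 0.000123) with Y27632. Fosl2 was called in every alternative processing of each comparison, with log2 changes of -0.95 to -0.91 and 0.21 to 0.26. Of the 8 members it was the one called lower in a comparison with DMSO.

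Atf3, a factor that stress and amino acid shortage induce, had smaller log2 changes than Jun or Fos under both inhibitors, a difference between genes that was not tested. It had 179, 151 and 162 normalised counts in DMSO and 187, 212 and 198 with blebbistatin, without overlap but with only a narrow gap between the groups. The log2 change of 0.28 passed the test (SE 0.100, limma adjusted p 0.0340), but it was called in only 8 of 14 alternatives, and the authors' deposited table gives an adjusted p of 0.130. With Y27632, Atf3 had 247, 255 and 244 against 186, 157 and 168, a log2 change of 0.55 (SE 0.091, limma adjusted p 0.000443).

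In all, 5 of the 8 members were called with blebbistatin (adjusted p under 0.05), of which 4 rose and 1 fell, where 53.0% of all tested genes were called, 26.1% higher and 26.9% lower. With Y27632, 6 of 8 were called, all higher, where 35.9% of all genes were called, 18.1% higher and 17.8% lower. The median log2 change of the members was 0.20 with blebbistatin and 0.87 with Y27632, against 0.0021 and 0.0040 over all genes tested. Among all tested genes, 0.310% had a larger absolute change with Y27632 than Fos, 0.330% than Junb, 1.22% than Fosl1 and 1.26% than Jun. With blebbistatin, 7.79% of genes had a larger absolute change than Fosl2 and 13.6% than Jun. Both comparisons use the same 3 DMSO libraries, so their changes are not independent of each other.

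The inhibitors were compared directly on whole reads recovered from both tables and scaled together (edgeR, 9 libraries). Their doses differ, and so the comparison is between the treatments as applied. Of the 8 members 7 were called, 6 lower and 1 higher with blebbistatin than with Y27632, where 53.1% of all genes were called, 26.2% lower and 26.9% higher. Fos had a mean of 154 scaled reads with blebbistatin and 369 with Y27632, a log2 difference of -1.25 (SE 0.101, edgeR adjusted p 1.58e-07). Fosl2 differed by -1.15 (SE 0.033, edgeR adjusted p 6.18e-12), with means of 4416 and 9849 scaled reads. The differences were -1.13 for Junb, -1.08 for Fosl1 and -0.49 for Jun (edgeR adjusted p 8.52e-07, 8.86e-06 and 4.16e-05). In these 5 genes every library with blebbistatin lay below every library with Y27632, and each was called in all 14 alternatives. Atf3 differed by -0.25 (edgeR adjusted p 0.0215, called in 11 of 14 alternatives). Fosb was higher with blebbistatin, by 0.37 (edgeR adjusted p 0.0472), a call that held in only 6 of 14 alternatives. Jund differed by -0.01 (95% interval -0.31 to 0.28, edgeR adjusted p 0.946), and by -0.30 without blebbistatin replicate 2 (edgeR adjusted p 0.000160).

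**Figure D2:**
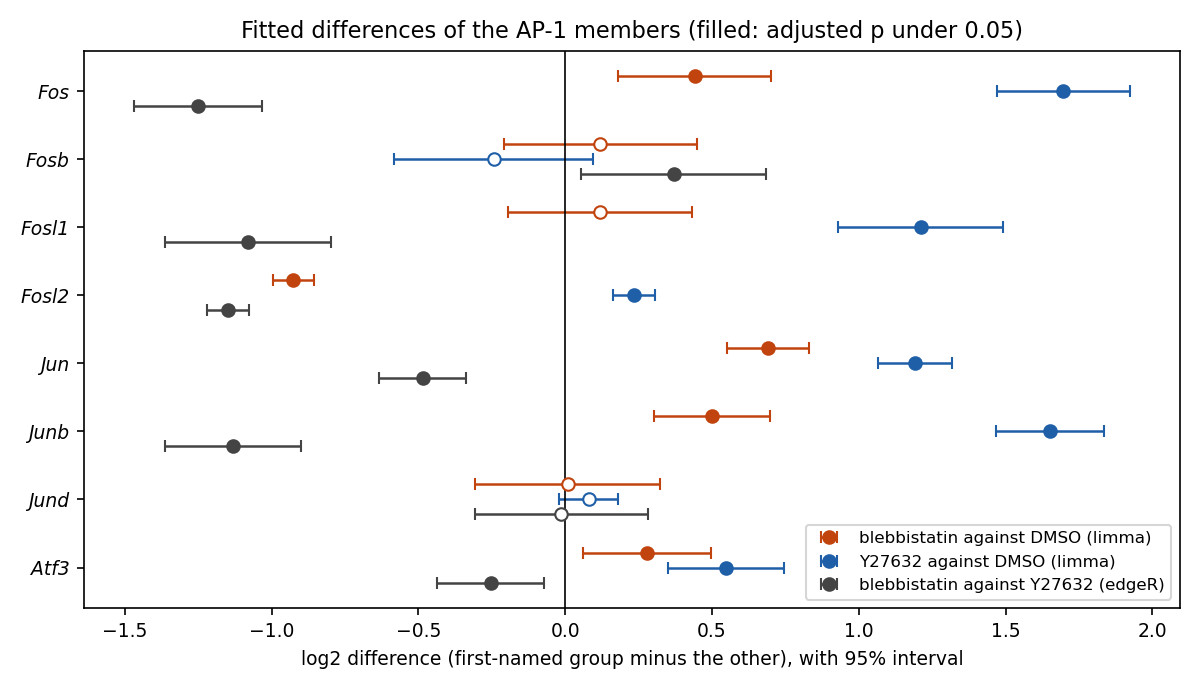
Log2 differences of the 8 AP-1 genes with 95% intervals, blebbistatin against DMSO and Y27632 against DMSO by limma and blebbistatin against Y27632 by edgeR, with filled points for an adjusted p under 0.05. Fosl2 lies at -0.93 with blebbistatin and at 0.23 with Y27632, on opposite sides of 0, and Jund lies near 0 in all 3 comparisons.

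Jun and Junb have a single exon each, so their levels can be set side by side per length. In scaled reads per kb of gene, Jun stood at 586 ± 33.1 in DMSO and Junb at 442 ± 12.4 (SD, n = 3), with Jun higher in every library. With blebbistatin they were at 950 ± 94.1 and 631 ± 102 (SD, n = 3), again without overlap. With Y27632 Jun was at 1340 ± 122 and Junb at 1400 ± 234 (SD, n = 3), with ranges of 1221 to 1465 and 1218 to 1664. The order of Jun above Junb in DMSO and with blebbistatin was therefore not seen beyond the spread with Y27632.

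Genes with the most similar profiles over the 9 libraries were found by Pearson correlation of log2(scaled reads + 1), among genes with a mean of at least 100 and a range of at least 1 on that scale. The 9 values fall into 3 treatments and share libraries, and no test was made. Fos was most like Spry2 (r 0.993), Errfi1 (0.993) and Nr4a3 (0.990), the first of which encodes a feedback inhibitor of growth factor signalling and the second one of the EGF receptor. Junb was most like Arc (0.984), Ier2 (0.983) and Bdkrb2 (0.980), and Jun like Arl4c (0.980), Crispld2 (0.976) and Csf2rb (0.975). Fosl1 was closest to Cebpb (0.983), Trib1 (0.981) and Gas1 (0.979). Fosl2 was closest to Efnb2 (0.997), the growth factor gene Fgf7 (0.994) and the kinase gene Plk2 (0.994). For Atf3 the genes were Pik3ap1 (0.975), Il7r (0.964) and Egr3 (0.954). Fosb was most like Impa2 (0.860), Gm6402 (0.855) and Ank1 (0.814). Jund was most like Ifit2 (0.941), Scand1 (0.866) and Mfap1b (0.865). Its scaled reads were 1799.6 in blebbistatin replicate 2 and 1085 to 1401 in the other 8 libraries, and without that library these correlations were 0.842, 0.575 and 0.553, values added after seeing the data. For the other 7 members no correlation fell below 0.771 when any 1 library was left out. The genes were picked on these same libraries as the most alike of 1047 or 1048. High values after leaving 1 out therefore do not show that a likeness would hold in other samples.

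The other immediate early genes were mostly called higher under Y27632 and went both ways under blebbistatin. Of 24 tested, 21 were called higher and 2 lower with Y27632, with a median log2 change of 0.81, and 11 higher and 8 lower with blebbistatin, with a median of 0.20. Among all genes tested, 18.1% were called higher and 17.8% lower with Y27632, and 26.1% higher and 26.9% lower with blebbistatin. The nuclear receptors Nr4a1 and Nr4a3 rose by 2.83 and 2.98 on the log2 scale with Y27632 (limma adjusted p 7.43e-10 and 4.89e-08). With blebbistatin Nr4a1 had 322, 416 and 458 normalised counts against 372, 343 and 314 in DMSO and was not called (limma adjusted p 0.158), and Nr4a3 rose by 0.57. Egr1, a zinc-finger factor induced with Fos, rose under both, by 1.78 with blebbistatin and 2.52 with Y27632. Ier2 rose by 1.16 with Y27632 and by 0.25 with blebbistatin, the latter called in 8 of 14 alternatives. Gem, which encodes a small GTPase, was the exception in size, rising by 2.66 with blebbistatin and 0.75 with Y27632. Cyr61 and Ctgf, secreted matrix-associated proteins well known as Yap and Taz targets, fell by 2.01 and 1.60 with blebbistatin. Under Y27632 Ctgf was not called (-0.11, limma adjusted p 0.267). Cyr61 was called at -0.13 (limma adjusted p 0.0372), but in only 9 of 14 alternatives. The other gene called lower with Y27632 was Npas4, from a mean of 15.9 to 5.27 normalised counts. Npas4 reached the minimum mean for testing in that table only through the DMSO libraries. Of the 14 alternatives, 12 tested it and 11 called it lower. Besides Cyr61 and Ctgf, the genes called lower with blebbistatin were Klf4, Klf2, Dusp1, Myc, Nr4a2 and Klf6. These were called higher with Y27632 and were named after their values were seen. The fall of Klf6 was called in only 6 of 14 alternatives. Directly compared, 20 of the 24 were lower with blebbistatin than with Y27632 and 2, Gem and Npas4, were higher, each by 1.93 (edgeR adjusted p 3.52e-12 for Gem and 0.000200 for Npas4). In that comparison 26.2% of all genes were called lower and 26.9% higher.

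Genes usually described as AP-1 targets were mostly higher under both inhibitors, and between the inhibitors they differed in both directions. Of 19 tested, 11 were called higher and 4 lower with blebbistatin, with a median log2 change of 0.19. With Y27632, 13 were called higher and 3 lower, with a median of 0.42. The shares over all genes tested were 26.1% higher and 26.9% lower with blebbistatin, and 18.1% higher and 17.8% lower with Y27632. The collagenase Mmp13 had 531, 481 and 515 normalised counts in DMSO and 7333, 7388 and 6949 with blebbistatin. With Y27632 it had 3422, 3130 and 3286, against 552, 499 and 535 in DMSO. The stromelysin Mmp10 rose by 3.63 on the log2 scale with blebbistatin and 2.11 with Y27632. Both were therefore higher with blebbistatin than with Y27632, by 1.21 for Mmp13 and 1.53 for Mmp10 (edgeR adjusted p 1.93e-11 and 1.85e-09), where Fos, Junb, Fosl1, Fosl2 and Jun were lower. Set against Y27632 directly, 26.9% of all genes were called higher under blebbistatin and 26.2% lower. Of the 19 targets, 5 were called higher and 9 were called lower, with a median log2 difference of -0.16. Among the 9 were Ptgs2, the inducible cyclooxygenase, and Hbegf, a growth factor of the EGF family, both named after their values were seen. Ptgs2 rose from a mean of 1168 to 1392 normalised counts with blebbistatin and from 1213 to 4891 with Y27632, a log2 difference of -1.74 between the inhibitors (edgeR adjusted p 1.16e-08). Its rise with blebbistatin was called in 11 of 14 alternatives, and not without DMSO replicate 2 or blebbistatin replicate 3. Hbegf had a value of 0.17 with blebbistatin (limma adjusted p 0.0677, called only without blebbistatin replicate 1) and rose by 1.79 with Y27632, a difference of -1.61 (edgeR adjusted p 6.91e-10). The cytokine genes Il6 and Lif rose with Y27632, by 1.64 and 1.21, and were not called with blebbistatin, at -0.43 (limma adjusted p 0.356) and 0.21 (0.378). The chemokine gene Ccl2 was called in opposite directions, at -1.04 with blebbistatin and 0.60 with Y27632. Hmox1, a haem-degrading stress enzyme, rose by 1.32 with blebbistatin and was not called with Y27632, at a mean of 3665 normalised counts against 3875 in DMSO. The genes called lower were Ccl2, Ccnd1, Vegfa and Timp1 with blebbistatin and Ccnd1, Vegfa and Timp1 with Y27632, the last 3 named after their values were seen.

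**Figure D3:**
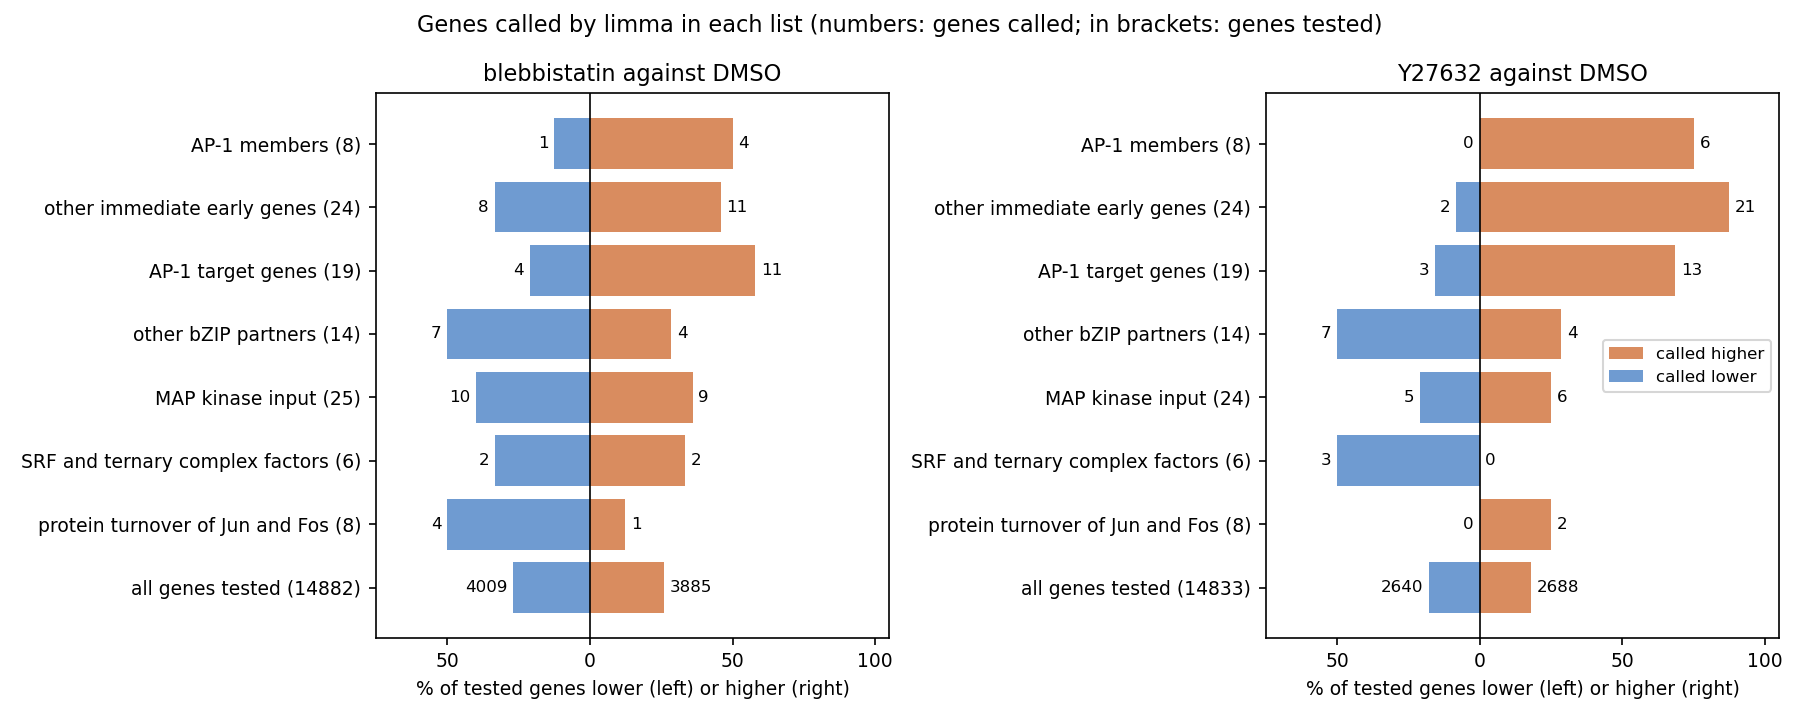
Share of the tested genes of each list called higher (to the right) or lower (to the left) by limma in the blebbistatin and Y27632 comparisons with DMSO, with the number of genes called beside each bar and the number tested in brackets. Of the other immediate early genes, 21 of 24 were higher with Y27632, against 11 of 24 with blebbistatin, and the last bar gives all genes tested.

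The other leucine-zipper partners, with which AP-1 proteins can pair or share sites, were called lower more often than higher, 7 and 4 of 14 under each inhibitor. The medians were -0.10 with blebbistatin and -0.13 with Y27632. Of all genes tested, 26.1% were called higher and 26.9% lower with blebbistatin, and 18.1% higher and 17.8% lower with Y27632. Atf4, the factor of the amino acid and unfolded protein responses, fell under both, by 1.12 and 0.89 on the log2 scale. Cebpd fell by 1.26 with blebbistatin and rose by 0.42 with Y27632, and Cebpb rose by 1.26 with Y27632 and was not called with blebbistatin (0.23, limma adjusted p 0.152). The genes called higher, the others named after their values were seen, were Atf1, Atf7, Crem and Nfe2l2 with blebbistatin and Cebpb, Cebpd, Crem (called in 8 of 14 alternatives) and Nfe2l2 with Y27632. Of the 7 called lower with blebbistatin, Ddit3 (-0.16) and Nfe2l1 (-0.07) were called in only 7 and 3 of 14 alternatives. Both were named after their values were seen, and the lean to lower calls with blebbistatin rests partly on them.

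The MAP kinase pathways, which switch on AP-1 through phosphorylation, had 9 genes called higher and 10 lower of 25 with blebbistatin, and 6 higher and 5 lower of 24 with Y27632. The medians were -0.06 and 0.0063. In either direction 76.0% of these genes were called with blebbistatin and 45.8% with Y27632, against 53.0% and 35.9% of all genes tested. Map2k6, a kinase of p38, and Map3k5 (ASK1) rose by 1.05 and 1.03 with blebbistatin. Mapk10 (JNK3) had a mean of 8.40 normalised counts in DMSO and 26.0 with blebbistatin, a log2 change of 1.58 in a gene that reached the minimum mean of 10 only through the blebbistatin libraries, and it was not tested in the Y27632 table. Map2k6 fell by 0.29 with Y27632 (limma adjusted p 0.0499, called in 4 of 14 alternatives), and Map3k5 had a value of 0.38 (0.102). The genes called lower with Y27632, the others named after their values were seen, were Mapk14, Map2k6, Map2k2, Map2k1 and Rps6ka3.

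Serum response factor and its partners act on the Fos promoter. Of these 6 genes, 2 were called higher and 2 lower with blebbistatin, and 0 higher and 3 lower with Y27632, with medians of -0.01 and -0.08. Over all genes tested, 26.1% were called higher and 26.9% lower with blebbistatin, and 18.1% higher and 17.8% lower with Y27632. Whether the counts of so short a list differ from these shares was not tested. All genes named from this list were named after their values were seen. Srf fell by 0.56 and 0.20 on the log2 scale and Mkl1 by 0.51 and 0.31, whereas Elk3 rose by 0.32 with blebbistatin and fell by 0.10 with Y27632 (limma adjusted p 0.0478, called in 5 of 14 alternatives). Mkl2 rose by 0.32 with blebbistatin. Among 8 genes for the breakdown of Jun and Fos proteins, Fbxw7, Dda1, Itch and Cul4a fell with blebbistatin and Trib2 rose. With Y27632, Trib1 and Trib2, adaptors of the COP1 ubiquitin ligase, rose by 1.01 and 0.78, and none was called lower. All but Trib1 were named after their values were seen. The medians were -0.11 and 0.04. Of these 8 breakdown genes, 62.5% were called with blebbistatin and 25.0% with Y27632, against 53.0% and 35.9% of all genes tested.

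Chromatin sites at the members came from 5 lists of the authors, each holding sites at a false discovery rate (FDR) of at most 0.05 with group means on a log2 scale. The values are the authors', and no value per library was given, so there is no SD or test. The reference of the doxycycline list carries the header of blebbistatin alone but was taken as neither drug, whose values it matches. Neither ATAC list, of 970 sites for blebbistatin against DMSO and 207 for Y27632 against DMSO, had a site annotated to a member. Their sites were annotated to only 788 and 191 genes, where the blebbistatin RNA table holds 35973 and the doxycycline list names 5134. With so few genes named, the absence of a member does not set the AP-1 genes apart. The nearest listed sites of the 2 ATAC lists were at least 148.9 kb from any member gene. All 13 member sites were in the doxycycline experiment, whose lists hold only absolute log2 folds of at least 1. They lay at 10 separate places, of Fos (5), Fosb (2), Jun, Junb and Atf3 (1 each), and none was annotated to Fosl1, Fosl2 or Jund.

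With doxycycline and no blebbistatin, 8 of 8 member sites were higher, in a list of which 95.8% were higher, so their direction does not set them apart. Of these 8, 4 were promoter sites, where 18.7% of the 7613 sites in the list were. The site on the Fos promoter, chr12:85473753-85474162, had a log2 mean of 8.43 with doxycycline and 7.43 with neither drug, a log2 fold of 1.0 at the edge of the fold limit (FDR 1.02e-05). It covers 137 of the 250 bases of the Fos promoter printed here, including the TGACGT match. The Junb promoter site, chr8:84978458-84978942, had a log2 fold of 1.13 (FDR 3.70e-06) and covers 194 of the printed bases. That of Atf3, chr1:191183102-191183707, had 1.09 (FDR 2.80e-07) and covers all 250. The Fosb promoter site, chr7:19310280-19310444, had 1.30 (FDR 1.04e-06), and a second site 10.1 kb before the Fosb start also had 1.30. Of all 1422 promoter sites in this list, 1421 were higher. The other Fos sites, all intergenic, lay 32.1 kb before the start and 12.3 and 53.3 kb after it, with log2 folds of 1.02, 1.19 and 1.02.

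With blebbistatin, intergenic sites near Fos and Jun were lower. In the absence of doxycycline the list holds 2 member sites, both lower, where 99.0% of all its sites were lower. One is chr12:85462324-85462574, 11.4 kb before the Fos start, with log2 means of 5.56 with blebbistatin and 6.68 with neither drug and a log2 fold of -1.12 (FDR 0.000777). The other is chr4:95032636-95032955, 19.4 kb after the Jun start, with 4.86 and 6.47 and a log2 fold of -1.60 (FDR 6.59e-06). By size of fold the Jun site ranked 70 of the 1231 in that list. In the presence of doxycycline, 3 of 3 member sites were lower, where 99.8% of all sites were lower. The sites before Fos and after Jun were listed again, with log2 folds of -1.07 and -1.18, overlapping those without doxycycline by 251 and 283 bases. The third, chr12:85441752-85441846, 32.1 kb before Fos, had a log2 fold of -1.30, and in the doxycycline list the same 95 bases had 1.02. The group with doxycycline alone serves in both of these lists, so the opposite signs are not independent. While Fos and Jun RNA rose with blebbistatin in the RNA experiment, the sites listed near them with blebbistatin were lower. The RNA and these sites come from different experiments, and the link between a site and a gene is the authors' annotation to the nearest start.

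**Figure D4:**
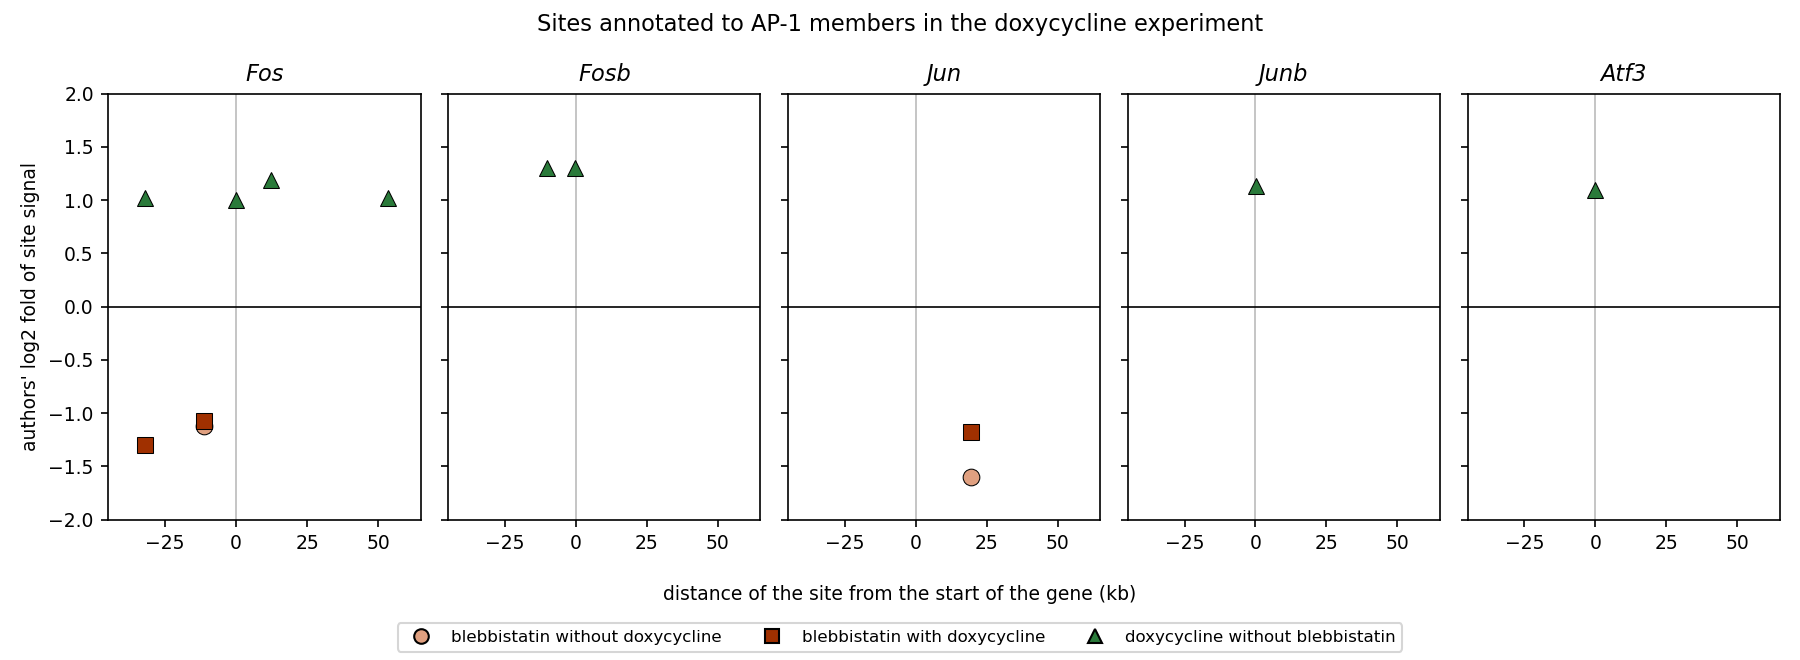
Log2 fold of the 13 sites annotated to AP-1 genes in the 3 lists of the doxycycline experiment, as the authors give it, against the distance from the start of the gene in kb, with 1 panel per gene and 1 marker per site. The 8 sites of the doxycycline list lie between 1.0 and 1.30, and the 5 sites of the blebbistatin lists between -1.60 and -1.07.

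Fosl2, the member that fell, had no annotated site. The listed site nearest to it with blebbistatin in ATAC lay 148.9 kb from the gene, at chr5:32306728-32306994, with a log2 fold of -1.81, and the authors annotated it to Plb1. Of the 970 sites of that ATAC list, 953 were lower. An overlapping site of the doxycycline list, chr5:32306718-32307052, had a log2 fold of 1.23, where 95.8% of that list's sites were higher. The directions of these sites therefore do not set them apart from the rest of their lists. In the Y27632 list the nearest site was 1917.4 kb away. For Jund, the nearest listed site was 24.3 kb away, in the doxycycline list, and for Fosl1 85.3 kb away, also in the doxycycline list.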

How the data were processed

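RNA was measured in 9 libraries and chromatin sites in 21. The authors deposited normalised counts per gene, library and table (a signal: counts divided by 1 size factor per library), with the aligner HISAT2, the counter featureCounts and DESeq2 named in the submitters' processing notes; 100% of values were whole multiples of 1 step within a tolerance of 0.01, and reads recovered from them were the same for DMSO in both tables at all 35972 shared genes. Site tables hold log2 group means and folds with p-value and FDR columns, all deposited by the authors; Bowtie2, MACS2, DiffBind, HOMER and the build mm10 are in the submitters' processing notes. Site coordinates, distances and annotation are other values of the authors' tables. Sample columns without a matching label numbered 0.

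Genes with a mean of at least 10 were tested by limma 3.58.1 (R 4.3.3) with a trend on log2(value + 1), which understates the change of low genes, within each table because tables were scaled separately. Blebbistatin and Y27632 were compared by edgeR 4.0.16 (TMM scaling, quasi-likelihood test) on reads recovered for 9 libraries. P-values were adjusted by Benjamini-Hochberg over all genes tested, and a call is an adjusted p under 0.05. Alternatives were other pseudocounts and filters, edgeR, DESeq2 1.42.0, a replicate block and leaving out each library; scaling the 9 libraries together and leaving libraries out of the profile correlations were added after seeing the data. The methods were tested on simulated data. The reference column of the doxycycline list, headed as blebbistatin without doxycycline, was read as neither drug: at 13 shared sites it differed from that group by a mean of -0.13 (SD 0.0044), and from the group in the header by 1.12 (SD 0.184).

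Members and lists were chosen with earlier results of these data known. Named are all members, list genes called with an absolute log2 change of at least 1 against DMSO (where over 4 in a list, the 2 highest and 2 lowest), cell type markers, the 3 genes most like each member, and every member site; other names are marked as chosen later. Genes were matched to RefSeq (GRCm38.p6) by symbol, and its promoter table held 7 of the 8 members.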

Additional observations from a re-analysis of the deposited data

Results flagged for a closer look

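Against DMSO, Fosl2 was called lower under blebbistatin and higher under Y27632, and the difference between the inhibitors was itself called, at -1.15 on the log2 scale (edgeR adjusted p 6.18e-12, -1.18 to -1.13 over the alternatives). All 3 libraries of each treatment lay on their own side of the 3 DMSO libraries. No other member was called in opposite directions. The pattern was not particular to Fosl2, however. Klf4 had log2 changes of -1.28 and 0.52 and Dusp1 of -0.66 and 0.88, called in both comparisons and between the inhibitors. Klf2, Myc, Nr4a2, Ccl2 and Cebpd were also called lower with blebbistatin and higher with Y27632. These genes were picked for this comparison after their values were seen, and the share of all genes with the pattern was not counted.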

How the results depend on the processing

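The number of members called stayed at 6 in all 14 alternatives with Y27632, was 4 or 5 with blebbistatin (4 to 5 when 1 library was left out) and 5 to 7 between the inhibitors (5 to 7 likewise), and no member's value under Y27632 changed its call or sign. With blebbistatin, 103 of 112 member values kept call and sign, and between the inhibitors 97 of 112. Atf3 with blebbistatin lost its call with DESeq2 (0.28, adjusted p 0.130). Signs reversed only for genes that were not called. With 1 library left out, Fosb with blebbistatin ranged from -0.024 (without DMSO replicate 3) to 0.20, Jund with blebbistatin from -0.23 (without blebbistatin replicate 2, called) to 0.14, also negative without DMSO replicate 3 (-0.032), and Jund between the inhibitors from -0.30 (without blebbistatin replicate 2, called) to 0.11 (without blebbistatin replicate 3), also positive without blebbistatin replicate 1 (0.088) or Y27632 replicate 3 (0.0032). The cause was not tested. Leaving out DMSO replicate 2 or blebbistatin replicate 1 or 3 moved the count of called tendon fibroblast markers with blebbistatin from 8 to 5.

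Replicate numbers showed no sign of pairing the samples, with correlations of same-numbered deviations of -0.09 to 0.05. With 3 libraries per group, such values cannot show that the libraries were unpaired. With a replicate block, 4 members were called with blebbistatin (Atf3 lost, adjusted p 0.0566), 6 with Y27632 and 7 between the inhibitors. Of the 13 member sites, 12 had an FDR of at most 0.01 and 12 lay within 50000 bp of the start, and the 3 shared pairs overlapped by at least 92.2% of the shorter site. Fos, Fosb, Fosl1 and Atf3 rest on the fewest reads of the members. With blebbistatin the 95% interval of Fosb ran from -0.21 to 0.45, that of Jun from 0.55 to 0.83, and that of Jund, which has more reads than Fosb, from -0.31 to 0.32; the part of depth in these widths was not tested.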
